A study of Homo sapiens with 58 samples.

Results

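This comparison asks which RNAs were bound by HuR in the neighbourhood of G3BP1, the scaffold protein of stress granules, rather than in the cytoplasm at large, in cells under arsenite stress. It rests on 8 of the 58 libraries of the series: the 4 streptavidin-enriched HuR CLIP libraries of the APEX-G3BP1 line with replicate numbers 4 to 7, and the 4 of the APEX-NES line with numbers 1 to 4. The rule takes libraries by line, capture step, treatment and library set, not by a measured value. All 8 came from Huh-7.5, a human hepatocellular carcinoma line, and all 8 libraries came from cells given 0.5 mM sodium arsenite for 45 min. Both lines carry APEX, an engineered ascorbate peroxidase that, given biotin phenol and a pulse of hydrogen peroxide, attaches biotin to proteins within a short distance. In the G3BP line it is joined to G3BP1, and in the NES line to a nuclear export signal that keeps it in the cytoplasm. After ultraviolet crosslinking, HuR was immunoprecipitated with its RNA, and the biotinylated share was captured on streptavidin. G3BP 4 and 5 and NES 1 and 2 belong to library set JL0388, and G3BP 6 and 7 and NES 3 and 4 to set JL1024. No untagged line is among these libraries, and the promoter that drives APEX and whether each line is 1 clone are not given in the sources used here. Nothing in the labels says that replicates came from separate cultures, so the p-values below measure only the spread between libraries.

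HuR, the product of ELAVL1, is an RNA-binding protein that favours uridine-rich and AU-rich stretches, mostly in 3'UTRs and introns. It shuttles between nucleus and cytoplasm, stabilises many of the mRNAs it binds, and moves into stress granules when translation is blocked. Stress granules form when arsenite leads to phosphorylation of eIF2α and untranslated mRNAs, bound by G3BP1 and its partners, condense in the cytoplasm.

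The NES libraries of set JL1024 stood apart from the other 6. Library totals ran from 28062 to 564779 tags, with NES 3 and NES 4 the deepest, and those libraries had only 4.02% and 3.85% of their tags in the listed peaks. G3BP 4 to 7 had 17.3%, 18.6%, 10.8% and 10.3% of their tags in peaks, and NES 1 and 2 had 12.6% and 8.58%. Within each set both G3BP libraries exceeded both NES libraries in this share, with means of 17.96% and 10.6% in JL0388 and of 10.6% and 3.94% in JL1024. Differences were therefore computed on 2 scales. CPM is the number of tags per 1000000 of the library total, and the second scale divides by the tags in peaks. Differences with no scale named below are on library totals. NES 1 and NES 2 differed by no more than sampling noise over their best covered sums (chi-square per degree of freedom 1.12, p = 0.259 over 55 degrees of freedom) and were counted as 1 sample wherever a mean with an SD is given. The pair NES 3 and 4, thinned to the same depth, differed by 5.40 per degree of freedom. Of 16 hepatocyte markers, 6 had tags in exonic peaks, at a summed 154 to 924 CPM in the G3BP libraries and 51.8 to 549 CPM in the NES libraries. APOA1, APOA2, TF, TTR and 6 further hepatocyte markers were at 0. All 9 markers of blood, vessel, muscle and connective tissue cells were at 0 in all 8 libraries.

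HuR-bound RNA taken near G3BP1 was richer in 3'UTR sequence. The share of tags in peaks that fell in 3'UTR peaks was 61.8%, 59.5%, 28.0% and 44.6% in G3BP 4 to 7, and 44.8%, 42.5%, 11.1% and 15.5% in NES 1 to 4. G3BP libraries lay above NES libraries in each set without overlap, while the lowest G3BP library, G3BP 6, lay below both NES libraries of the other set. The means were 48.5% ± 15.6 (SD, n = 4) and 23.4% ± 17.7 (SD, n = 3). The mean difference over the sets was 20.01 percentage points, 17.0 in JL0388 and 23.0 in JL1024. A two-sided exact permutation test within sets gave p = 0.0556, the smallest that its 36 arrangements allow, and 0.0794 after Benjamini-Hochberg adjustment over the 10 classes. This within-set test cannot reach 0.05. Permuted over all 8 libraries without regard to set, the two-sided exact p was 0.143.

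**Figure D1:**
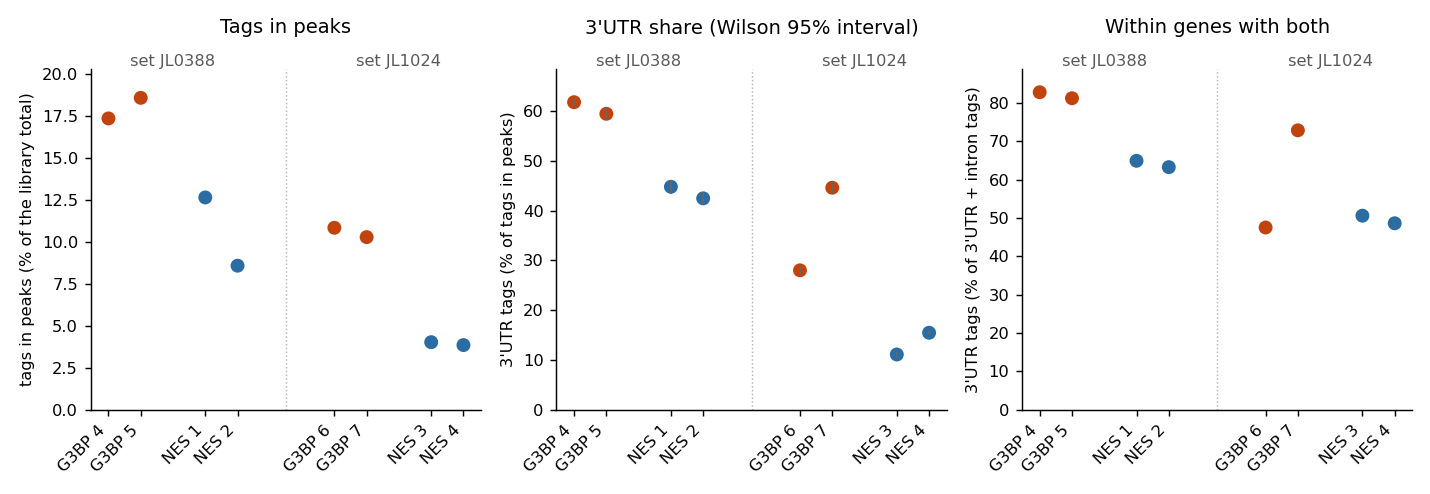
Each point is 1 library, orange for G3BP and blue for NES, with the 2 library sets side by side. The panels show tags in peaks as a percentage of the library total, 3'UTR tags as a percentage of tags in peaks with Wilson 95% intervals (narrower than the points), and 3'UTR tags as a percentage of 3'UTR plus intron tags over genes that have both. G3BP points lie above NES points within each set in the first and second panels, and in the third G3BP 6 (47.5%) lies just below NES 3 and 4 (50.6% and 48.6%).

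The classes that gave way differed between the sets. In JL0388 the intron share was lower near G3BP1, at 14.4% and 15.7% against 25.7% and 26.7% in NES 1 and 2. In JL1024 it was not, at 32.7% and 18.8% against 13.1% and 19.0%, so the mean difference of -0.74 points joined -11.2 and 9.70 (exact permutation p = 0.944). Non-coding RNA peaks held 5.76%, 6.68%, 12.7% and 9.10% of the tags in G3BP 4 to 7 against 10.2%, 9.77%, 30.4% and 24.2% in NES 1 to 4, a difference of -10.1 points. Small nucleolar RNA (snoRNA) peaks held 0.097% to 1.10% in the G3BP libraries and 0.351%, 0.658%, 6.34% and 2.66% in NES 1 to 4. Transposable element peaks held 0.923% to 5.67% in the G3BP libraries and 1.62% to 11.3% in the NES libraries. These 3 classes were lower in the G3BP libraries of each set without overlap, as were unannotated peaks (-3.38 points) and the class named Other (-0.917 points), and 5'UTR peaks were higher (0.296 points). Each of these 6 had the same exact permutation p of 0.0556 and adjusted p of 0.0794. Shares of coding sequence and of the 10 kb downstream of genes differed by 0.124 and 0.127 points (exact permutation p = 0.389 for both).

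**Figure D2:**
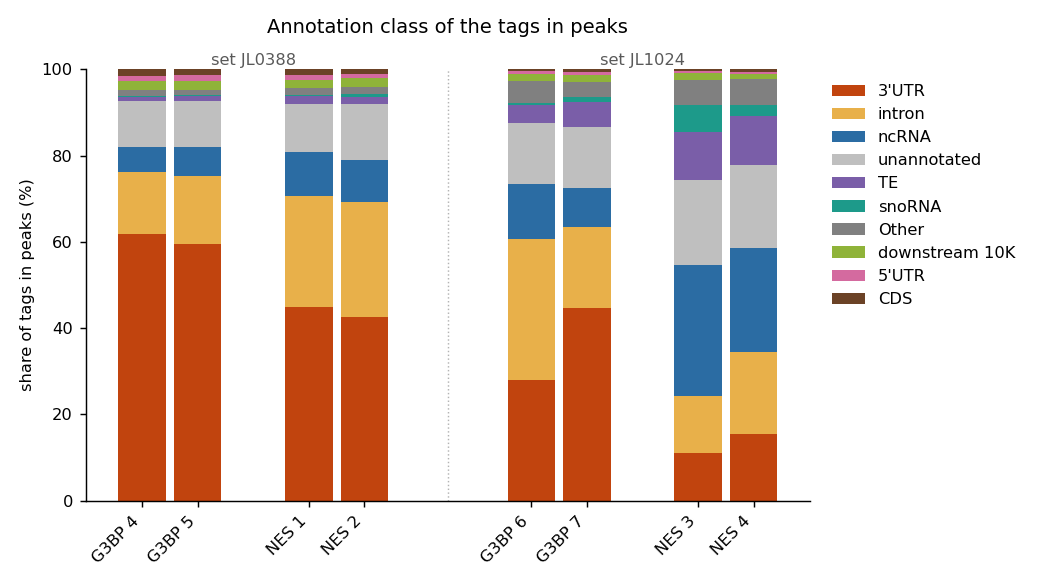
Stacked bars show how the tags in peaks of each library were divided among the annotation classes, in percent. The 3'UTR block at the base is taller in the G3BP bars of each set, and the ncRNA block is largest in NES 3 and 4, at 30.4% and 24.2%.

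Shares must sum to 100%, so the same classes were also set against the library total. There the 3'UTR class exceeded NES by 4.76% of all tags, intron by 1.02%, unannotated by 0.69%, ncRNA by 0.067% and transposable elements by 0.052%, and snoRNA was lower by 0.066% (-0.066). The intron, unannotated, ncRNA, transposable element and Other differences thus had opposite signs on the 2 scales. For 3'UTR, 5'UTR and snoRNA the sign was the same on both.

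Other libraries of the same 2 sets were read alongside. The arsenite inputs, which had no capture step, held 23.6% to 24.3% 3'UTR tags in the G3BP line and 19.5% to 23.0% in the NES line. Enriched libraries of the nuclear line (NLS) after arsenite held 13.1% to 15.7%. Mock-treated enriched libraries of JL0388 held 35.9% and 29.9% in the G3BP line and 34.7% and 36.7% in the NES line. In JL1024 they held 24.2% and 22.6% against 8.94% and 16.1%, so there G3BP lay above NES without arsenite too. An earlier set of G3BP arsenite libraries, JL0361, which has no NES counterpart here, held 22.4%, 49.0% and 48.4%. Fractionated cells had 18.2% to 20.7% in nuclei and 23.5% to 25.3% in cytoplasm.

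The tilt toward 3'UTRs was asked again within genes, which does not depend on either scale. Over the 6297 genes that have both 3'UTR and intron peaks, 3'UTR tags made up 82.8%, 81.2%, 47.5% and 72.8% of 3'UTR plus intron tags in G3BP 4 to 7, and 64.9%, 63.2%, 50.6% and 48.6% in NES 1 to 4. The G3BP libraries were higher in JL0388, and in JL1024 G3BP 7 was higher and G3BP 6 lower than both NES libraries. The means were 71.1% ± 16.3 (SD, n = 4) and 54.4% ± 8.41 (SD, n = 3), and the difference of 14.2 points over the sets did not pass the exact permutation test (p = 0.167). By gene, the sets differed. In JL0388, 68 genes had at least 10 tags in each line, and 40 had the higher 3'UTR share in the G3BP libraries and 9 the lower, with a median difference of 5.72 points. In JL1024, 89 genes had as many, and 37 were higher and 22 lower, with a median difference of 0. Pooled over sets, 190 of 307 genes were higher and 60 lower, a count that also mixes the sets, since most NES tags came from JL1024. The genes named next were picked after their values were seen. PRRC2C, a stress granule protein gene, had 9 of 9 tags in the 3'UTR near G3BP1 and 3 of 5 in the NES libraries of JL0388, and 4 of 4 and 1 of 9 in JL1024. GSK3B, a kinase gene, ran the other way in both sets, with 3 of 7 against 5 of 9 and 0 of 5 against 6 of 11. Among 247 genes with both sums tested, the 3'UTR sum had the larger G3BP minus NES difference in 185 (74.9%). Unlike the shares above, this count is on library totals, where the pseudocount shrinks differences of low sums. The median difference there was 0.53 for all tested sums and 1.02 for those with at least 20 tags. The part of coverage in this count was not tested.

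At the level of genes, tags were summed over all peaks of 1 gene and 1 class, and a sum was tested when it had tags in at least 4 of the 8 libraries. Of 30217 sums, 2275 were tested. Scaled to the library total, 148 were higher near G3BP1 (6.51% of those tested) and 6 were lower (0.264%), by limma on log2(CPM + 12.2) with the library set as a covariate and adjusted p below 0.05. The 148 belonged to 148 genes, and 135 of them were 3'UTR sums, which made up 91.2% of the higher sums and 53.3% of the tested ones. By class, 135 of 1213 3'UTR sums (11.1%) were higher, 6 of 803 intron sums (0.747%), 4 of 19 5'UTR sums, 2 of 165 ncRNA sums and 1 of 8 coding sums. The median log2 difference was 0.78 for 3'UTR sums, 1.15 for 5'UTR, 0.30 for intron, 0.11 for ncRNA and -0.62 for snoRNA sums, beside 0.53 for all 2275. Other scalings ended nearly all the higher calls: with TMM factors edgeR called 1 higher and 42 lower, and limma scaled to tags in mRNA classes called 1 and 30, with an all-sum median of -0.03. Scaled to tags in peaks, the all-sum median was 0.17, and those of the classes in the same order were 0.41, 0.70, -0.02, -0.25 and -1.26.

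Most calls belonged to the library total scale. Scaled to tags in peaks, 5 sums were higher (0.22% of 2275): EPS15, PHACTR2, PKP2 and SCD in the 3'UTR and HELLS in the ncRNA class. With NES 1 and 2 counted as 1 sample, limma called none on that scale in either direction (237 below 0.05 unadjusted), and 117 higher and 3 lower on library totals. On tags in peaks 11 were lower (0.484%), all of them ribosomal RNA genes, snoRNA genes or snoRNA hosts. All 148 higher sums kept a positive difference on the second scale, where 61.5% of all tested sums were positive, and 139 were positive there in both sets. The 148 were picked for their differences in these same tags, so these counts are a description. Their median shrank from 1.90 to 1.40. Within sets the 148 had medians of 1.71 in JL0388 and 2.75 in JL1024 on the library total scale, and 1.14 and 1.95 on tags in peaks. G3BP and NES libraries did not overlap in either set for 122 of the 148 on library totals (13.2% of all tested sums were so on the higher side) and for 81 on tags in peaks (5.98%). The count of 148 fell to 43 without G3BP 5 or without NES 3, to 55 without NES 4, to 60 without NES 2 and to 75 without G3BP 4, and limma called no sum within either set alone, where 255 (JL0388) and 509 (JL1024) were below 0.05 unadjusted. On tags in peaks, the 5 and 11 calls fell to 0 and 0 without NES 3, to 0 and 4 without NES 4 or G3BP 7, and to 1 higher without G3BP 4 and 3 higher without G3BP 5. They rose to 14 and 19 without NES 2, to 18 lower without NES 1 and to 13 higher without G3BP 6. By edgeR, 98 sums were higher (4.31%) and 0 lower on library totals, with 591 below 0.05 unadjusted, and 2 were higher (0.0879%) and 18 lower (0.791%) on tags in peaks. Neither line by capture (6380 sums tested) nor line by arsenite (4994 sums tested) gave an interaction with an adjusted p below 0.05 by limma or edgeR (0% called), with 163 and 214 below 0.05 unadjusted by limma and 550 and 313 by edgeR, so the difference was not shown to be larger than in input or in mock-treated libraries.

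**Figure D3:**
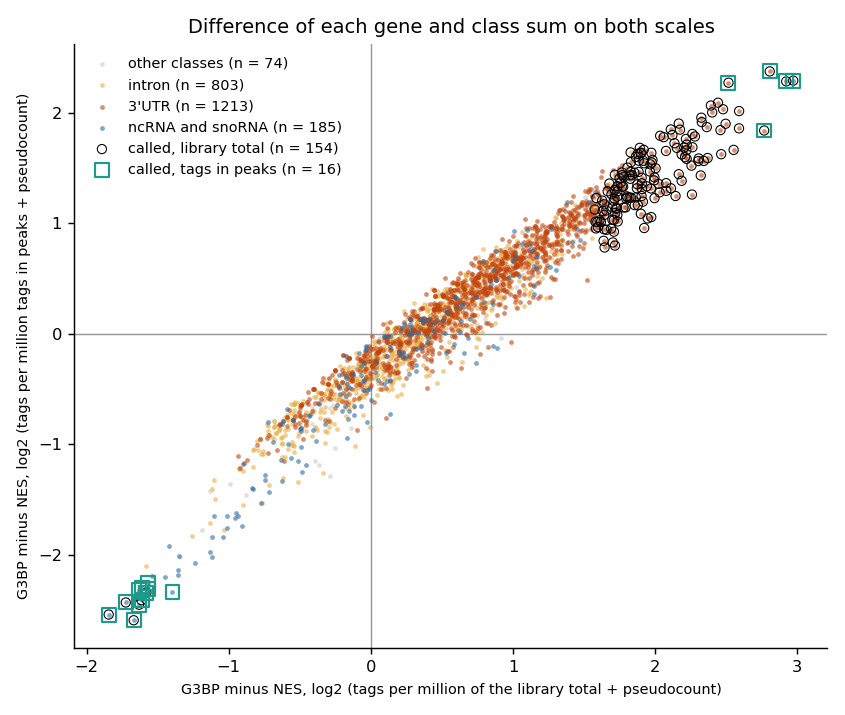
Each point is 1 gene and class sum (n = 2275), placed by its G3BP minus NES log2 difference scaled to the library total (horizontal) and to tags in peaks (vertical). Circles mark the 154 sums called on library totals and squares the 16 called on tags in peaks. Of the 148 circles at the upper right, 135 are 3'UTR sums (orange), and the circles and squares at the lower left are ncRNA and snoRNA sums (blue).

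**Figure D4:**
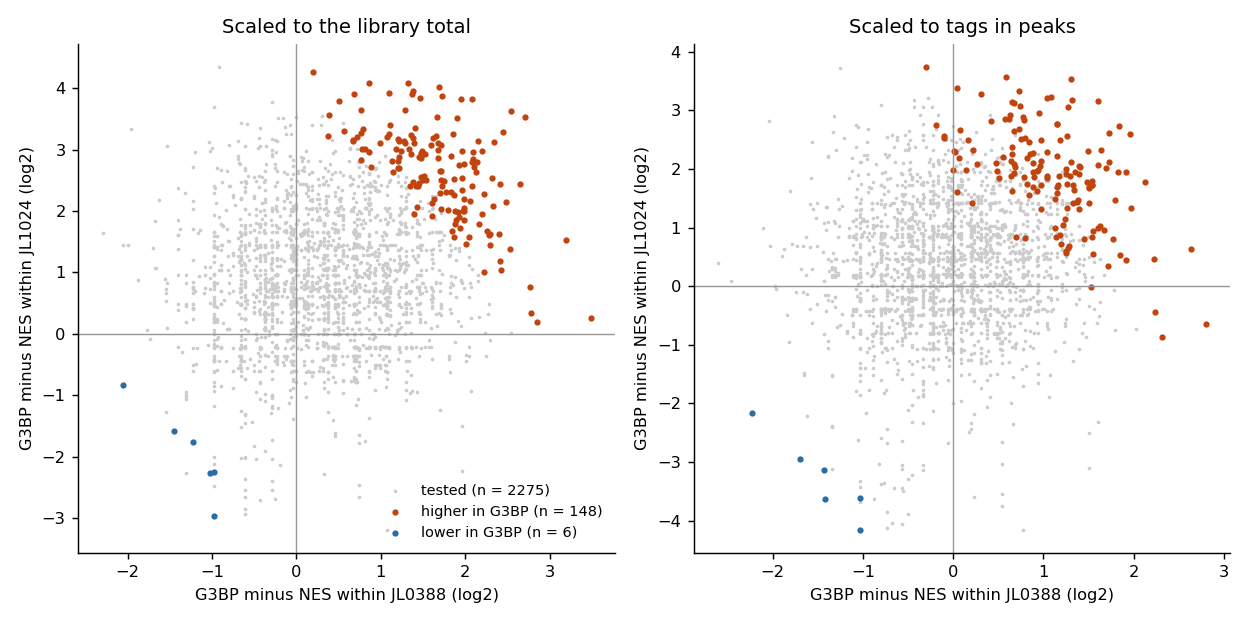
The G3BP minus NES log2 difference of each tested sum is shown within set JL0388 (horizontal) against set JL1024 (vertical), scaled to the library total on the left and to tags in peaks on the right. All 148 sums called higher (orange) lie in the upper right of the left panel, and on the right 139 of them do. The 6 called lower (blue) lie in the lower left of both panels.

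The 18 sums with the largest differences among those with at least 20 tags were 17 3'UTR sums and 1 ncRNA sum, with log2 differences of 2.32 to 2.97 on library totals and 1.43 to 2.37 on tags in peaks. In 16 of the 18 the lowest G3BP library exceeded the highest NES library, which describes sums picked by these same differences. Within sets all 18 were separated on library totals, as were 13.2% of all tested sums on the higher side. SPTBN1 and CTTN were separated within sets only. Leaving out any 1 of the 8 libraries left 14 of them called on library totals. On tags in peaks HELLS, PHACTR2, EPS15 and SCD were called, and in the fits that left out 1 library these calls held in 2, 3, 5 and 1 of 8. The rest of the 18 had adjusted p-values of 0.0611 to 0.211 on that scale. The sums are described by the textbook role of their genes, a grouping made after their values were seen and not tested. Counts behind these values are small, with a median of 33 tags over 8 libraries for the 148 sums and 11 for all tested sums, and a fitted difference for a gene with few NES tags depends on the pseudocount of 12.2 CPM.

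Of lipid genes, SCD (ENSG00000099194) encodes stearoyl-CoA desaturase, the enzyme that puts the double bond into newly made fatty acids. Its 3'UTR had 688, 998, 214 and 433 CPM in G3BP 4 to 7 and 157, 118, 35.2 and 19.5 CPM in NES 1 to 4. All G3BP libraries were above all NES libraries, and JL0388 was higher than JL1024 in both lines. The log2 difference was 2.77 (SE 0.56, adjusted p = 0.000399) on library totals and 1.84 (adjusted p = 0.0487) on tags in peaks, a call kept in 1 of the 8 fits that left out a library. A single peak, at chr10:100364131-100364151 on the plus strand, carried 148 of its 186 tags, with 120 from G3BP and 28 from NES libraries (log2 difference 2.97, adjusted p = 0.0158). HMGCS1, which makes the precursor of cholesterol, had 147, 178, 59.8 and 209 CPM in its 3'UTR in the G3BP libraries and 78.4, 26.2, 22.8 and 23.0 CPM in the NES libraries (log2 1.70, adjusted p = 0.0304). It was not called on tags in peaks (0.83, adjusted p = 0.588), its call held in 2 of the 8 fits that left out a library (adjusted p up to 0.131), and its intron sum was not called on either scale (0.79, adjusted p = 0.426 on library totals).

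Of genes of endocytosis, transport and the Golgi, EPS15 (ENSG00000085832) encodes an adaptor of clathrin-coated pits. Its 3'UTR had 56.4, 71.3, 93.9 and 119 CPM in G3BP 4 to 7, while NES 3 had 3 tags (6.21 CPM) and the other 3 NES libraries had none. The log2 difference was 2.81 (SE 0.57, adjusted p = 0.000399) on library totals and 2.37 (adjusted p = 0.0336) on tags in peaks, the largest on that scale among the 18. In JL1024 the ratio of tags per library total was 36.1 with an exact 95% counting interval of 10.6 to 190, and in JL0388, with 7 tags against none and a floor of 3 tags over NES 1 and 2, it was at least 2.29. Its main peak, at chr1:51356496-51356516 on the minus strand, had 19 tags in the G3BP libraries and none in the NES libraries. SLC38A2, a sodium-coupled amino acid transporter, had 451, 463, 179 and 254 CPM against 157, 105, 4.14 and 14.2 CPM (log2 2.59, adjusted p = 0.000523). VCPIP1, a deubiquitinase that helps rebuild the Golgi, had 113, 285, 76.9 and 224 CPM against 26.1, 39.4, 0 and 12.4 CPM (2.59, adjusted p = 0.000445). MAN1A1, a Golgi mannosidase gene, had 147, 71.3, 25.6 and 44.8 CPM, and its NES libraries had only 1 tag each in NES 3 and NES 4 (2.48, adjusted p = 0.00224). These 3 had adjusted p-values of 0.0622 to 0.0631 on tags in peaks. RAB5A, a small GTPase of early endosomes, had 124, 71.3, 34.2 and 74.7 CPM against 52.3, 0, 10.4 and 8.85 CPM in its 3'UTR (1.73, adjusted p = 0.0328, and 1.08 with 0.505 on tags in peaks), a call that held in 2 of the 8 fits without 1 library (adjusted p up to 0.19).

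Of genes that act at the cytoskeleton, SPTBN1 encodes a beta spectrin of the membrane skeleton. Its 3'UTR had 845, 748, 222 and 836 CPM in G3BP 4 to 7 and 471, 197, 12.4 and 31.9 CPM in NES 1 to 4 (log2 2.55, SE 0.57, adjusted p = 0.00199, and 0.0665 without NES 2), and on tags in peaks the difference was 1.66 (adjusted p = 0.0896). NES 1 was higher than G3BP 6, so separation held within sets only. Its peak at chr2:54669256-54669276 on the plus strand had 143 G3BP and 42 NES tags (2.67, adjusted p = 0.0233). CTTN encodes cortactin, which binds branched actin filaments. It had 248, 535, 76.9 and 314 CPM against 78.4, 52.5, 18.6 and 12.4 CPM (2.46, adjusted p = 0.00109, and 1.62 with 0.149 on tags in peaks), with 85 of its 90 tags in the peak at chr11:70435275-70435295 on the plus strand. PHACTR2 (ENSG00000112419), a regulator of actin and of protein phosphatase, had 293, 107, 76.9 and 164 CPM against 0, 39.4, 2.07 and 7.08 CPM. Its difference was 2.92 (SE 0.53, adjusted p = 5.29e-05) on library totals and 2.28 (adjusted p = 0.0349) on tags in peaks. MARCKS, an actin-binding substrate of protein kinase C, had 282, 356, 137 and 194 CPM against 52.3, 65.6, 16.6 and 24.8 CPM (2.32, adjusted p = 0.00224, and 1.43 with 0.211 on tags in peaks). SNTB1, a syntrophin, and TACC1, a coiled-coil protein of centrosomes, had 2 and 1 NES tags. Their log2 differences were 2.44 and 2.39 (adjusted p = 0.00268 for both, and 0.0611 for both on tags in peaks), and leaving out G3BP 7 or NES 3 ended the SNTB1 call, with a highest adjusted p of 0.0541.

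PKP2, a desmosomal plakophilin, is named because it was 1 of the 5 sums called on tags in peaks, although its 19 tags are below the number set for naming. Its 3'UTR had 5, 1, 5 and 8 tags in G3BP 4 to 7 (56.4, 35.6, 42.7 and 119 CPM) and none in any NES library. The log2 difference was 2.52 on library totals (adjusted p = 0.00224) and 2.27 on tags in peaks (adjusted p = 0.0349). Against a floor of 3 tags over the NES libraries of a set, it was at least 1.96-fold higher per library total in JL0388 and at least 24.7-fold higher in JL1024, where the NES libraries are far deeper. The other sums called higher with no NES tag were ELK4, GPD2, PPP1CA and REXO1 in the 3'UTR and RAB7A in introns. By the same floor their bounds were 1.63-fold to 2.94-fold in JL0388 and 7.59-fold to 15.2-fold in JL1024, where a set held over 3 G3BP tags. All 6 of these sums met the requirement of tags in 4 libraries through the G3BP group alone, so they had to differ, and their values are a description. EPS15 and CALR, with NES tags in NES 3 only and in NES 4 only, also met it through their 4 G3BP libraries. Their values are to be read with the same limit. Of the 148 sums called higher, 35 had no more than 3 NES tags.

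Among genes of RNA metabolism, translation and chromatin, HELLS (ENSG00000119969) had the largest difference of all called sums. HELLS encodes a chromatin remodelling helicase, but this sum comes from peaks that the table classes as long non-coding RNA under that gene's name. It had 248, 249, 102 and 119 CPM in G3BP 4 to 7 and 0, 65.6, 4.14 and 5.31 CPM in NES 1 to 4. The difference was 2.97 (SE 0.53, adjusted p = 4.88e-05) on library totals and 2.29 (adjusted p = 0.0349) on tags in peaks, and its tags were spread over 17 peaks. GSPT1, which encodes the translation termination factor eRF3, had 90.2, 143, 34.2 and 149 CPM against 0, 26.2, 2.07 and 5.31 CPM (2.50, adjusted p = 0.00149). ADAR, the adenosine-to-inosine RNA editing enzyme, had 180, 143, 42.7 and 14.9 CPM against 0, 0, 2.07 and 10.6 CPM (2.46, adjusted p = 0.00224; 0.0533 without G3BP 5). SRRM1, a splicing coactivator, had 135, 71.3, 76.9 and 134 CPM against 0, 26.2, 12.4 and 8.85 CPM (2.34, adjusted p = 0.00224). For these 3 and for YWHAE, a phosphoserine-binding adaptor protein (2.37, adjusted p = 0.00224), the adjusted p on tags in peaks was 0.114 to 0.21. The main peak of YWHAE held 42 of its 49 tags, 25 from G3BP and 17 from NES libraries, and limma did not call it (1.19, adjusted p = 0.236). Nor were the main peaks of PHACTR2, SLC38A2, SRRM1 and HELLS called (adjusted p = 0.219, 0.111, 0.297 and 0.142). Those of EPS15, SCD, VCPIP1, SPTBN1, CTTN, ADAR, RRM2B, CALR and MARCKS were called, and the rest of the 18 were not tested. RRM2B, a subunit of ribonucleotide reductase, differed by 2.40 (adjusted p = 0.00224) and by 2.00 on tags in peaks (adjusted p = 0.0631).

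**Figure D5:**
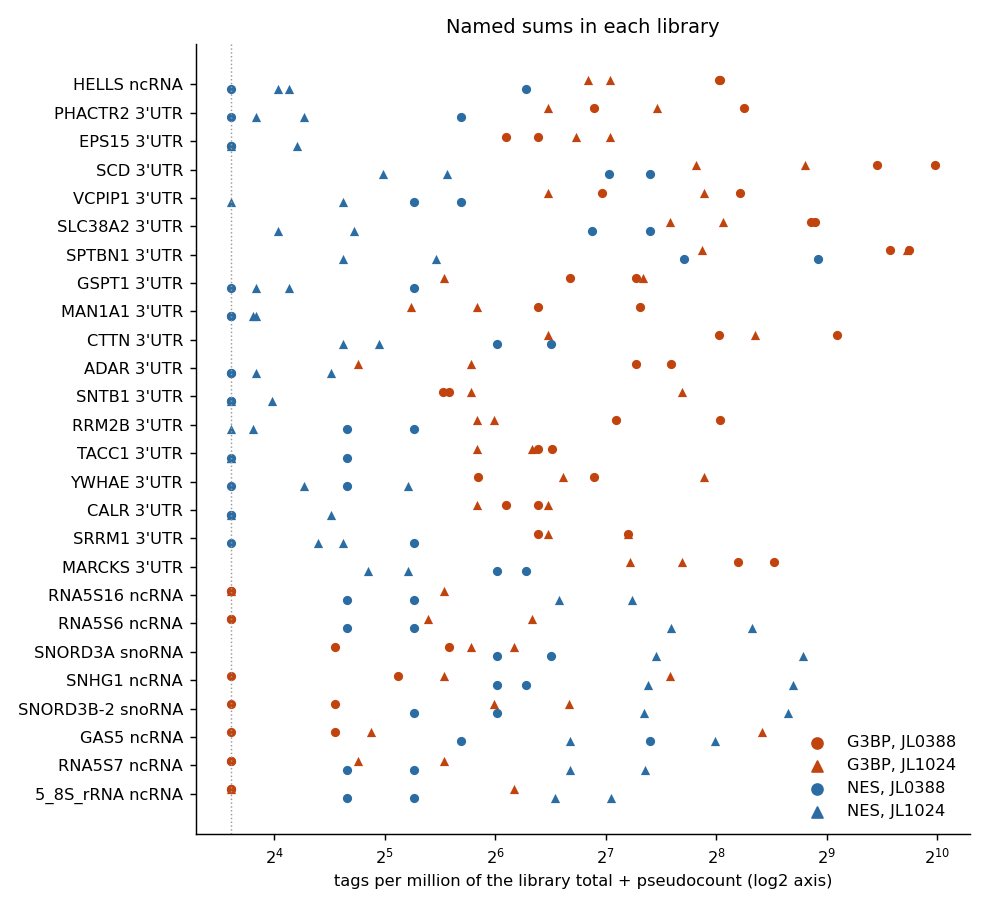
For each of the 26 sums with the largest differences (18 higher and 8 lower), the CPM plus the pseudocount of 12.2 is shown on a log2 axis in each of the 8 libraries. Orange points are G3BP, blue points NES, circles set JL0388 and triangles set JL1024, and the dotted line is a value of 0 CPM. In the upper 18 rows G3BP points lie to the right of NES points of the same set, and in the lower 8 rows they lie to the left, apart from GAS5 and SNHG1, where G3BP 7 (329 and 179 CPM) lies right of NES 4 or both NES triangles.

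The 6 sums lower near G3BP1 on library totals were also called on tags in peaks. They were the 5S rRNA copies RNA5S16 and RNA5S6, the U3 snoRNA genes SNORD3A and SNORD3B-2, and the snoRNA host genes SNHG1 and GAS5. SNORD3A, the snoRNA that guides early cleavage of the ribosomal RNA precursor, had 1, 1, 5 and 4 tags in G3BP 4 to 7 and 3, 4, 207 and 92 in NES 1 to 4. That is 11.3, 35.6, 42.7 and 59.7 CPM against 78.4, 52.5, 429 and 163 CPM. The G3BP values lay below the NES values of the same set, and nearly all NES tags came from NES 3 and 4. The log2 difference was -1.67 (SE 0.53, adjusted p = 0.0334) on library totals and -2.59 (adjusted p = 0.0227) on tags in peaks. RNA5S16 had 0, 0, 34.2 and 0 CPM against 26.1, 13.1, 139 and 83.2 CPM (-1.84, adjusted p = 0.0322, and -2.54 on tags in peaks). RNA5S6 had a difference of -1.72 (adjusted p = 0.0326), SNHG1 of -1.63 (0.038) and SNORD3B-2 of -1.61 (0.0396). GAS5 had 11.3, 0, 17.1 and 329 CPM against 157, 39.4, 242 and 90.3 CPM (-1.58, adjusted p = 0.0445), and G3BP 7 was higher than any NES library, so the groups overlapped in JL1024. Called on tags in peaks alone were RNA5S7 (-2.30), 5_8S_rRNA (-2.32), RNA5S4, RNA5S5 and SNORD3C. RNA5S16, RNA5S6, SNORD3A and SNORD3B-2 did not overlap between the groups in either set, as held on the lower side for 1.32% of tested sums on library totals and 2.46% on tags in peaks. The 5S copies and the U3 copies are near-identical in sequence, so tags cannot be assigned to 1 copy with certainty and these sums are not independent.

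These calls changed with the method and with single libraries. On library totals edgeR, limma-voom, and limma with the number within the library set as a block called no sum lower. On library totals, leaving out NES 3 raised the adjusted p of 5 of the 6 to between 0.245 and 0.286, and that of GAS5 reached 0.31 without G3BP 5. Without G3BP 4, G3BP 5, NES 3 or NES 4 the count of lower sums was 0, and without NES 2 it was 1. Together the 17 names of 5S copies took 0.0325%, 0.0384%, 0.772% and 0.320% of the tags in peaks in G3BP 4 to 7, and 0.207%, 0.245%, 7.55% and 4.40% in NES 1 to 4. The SNORD3 genes took 0.026% to 0.262% in the G3BP libraries and 0.124%, 0.214%, 4.07% and 1.66% in NES 1 to 4. Within JL0388 both were lower in G3BP too, by fewer percentage points. The nuclear NLS libraries 3 and 4 after arsenite, also of JL1024, held 4.30% and 3.58% of 5S tags and 1.49% and 0.934% of SNORD3 tags. Mock-treated NES libraries 3 and 4 held 6.07% and 1.93% of 5S tags and 4.47% and 1.39% of SNORD3 tags, and mock-treated G3BP libraries 5 and 6 held 0.517% and 0.282% and 0.254% and 0.0336%. Of the arsenite inputs, the NES libraries held 0.655% and 0.936% of 5S tags and 0.129% and 0.927% of SNORD3 tags, and the G3BP libraries 0.269% and 0.284% and 0.0763% and 0.0325%. The G3BP minus NES log2 difference on library totals in these inputs was -2.13 for SNORD3A, -2.24 for SNORD3B-2, -2.07 for GAS5, -1.55 for SNHG1, -0.91 for RNA5S16 and -0.53 for RNA5S6. In mock-treated libraries it was -2.38, -2.39, -1.15, -0.81, -0.06 and -1.58 in the same order. For the U3 genes both values were larger in size than in the enriched arsenite libraries. In fractionated cells, SNORD3 tags made up 0.035% to 0.057% in nuclei and 0.002% to 0.003% in cytoplasm, while 5S tags made up 0.0389% to 0.106% and 0.0498% to 0.122%. The part that these tags had in the lower calls was not tested.

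Stress granule protein genes were a list of 39, of which 26 had a tested sum. Of their 34 sums, 4 were higher on library totals (3 of 24 3'UTR sums, beside 6.51% of all sums and 11.1% of all 3'UTR sums) and none on tags in peaks, with median log2 differences of 0.75 and 0.34. G3BP1 itself had 361, 321, 42.7 and 74.7 CPM in its 3'UTR in G3BP 4 to 7 and 157, 91.8, 4.14 and 1.77 CPM in NES 1 to 4. The libraries did not overlap within sets, and its difference was 1.80 (SE 0.53, adjusted p = 0.0193; up to 0.111 when 1 library was left out). On tags in peaks it was 1.24 (adjusted p = 0.359). Whether the APEX-G3BP1 transgene adds to the G3BP1 tags was not tested. IGF2BP1, an mRNA-binding protein of cytoplasmic granules, had 135, 143, 137 and 89.6 CPM against 78.4, 13.1, 12.4 and 7.08 CPM (2.08). PRRC2C (1.69, adjusted p = 0.0486) and the 5'UTR of PABPC1, the poly(A)-binding protein (1.80, adjusted p = 0.038), were the others, and their calls held in 2 and 1 of the 8 fits without 1 library (adjusted p up to 0.181 and 0.132). LARP1, which binds the cap of ribosomal protein mRNAs, had 1.19 (adjusted p = 0.157) and ELAVL1, the gene of HuR, 1.46 (adjusted p = 0.0792). Of 7 sums of RNAs reported to concentrate in stress granules, only PRRC2C was called, and medians were 0.75 and 0.51. NORAD, a long non-coding RNA that binds PUMILIO proteins, had 248, 214, 8.54 and 29.9 CPM against 26.1, 105, 12.4 and 1.77 CPM (1.26, adjusted p = 0.134), with overlap in JL1024.

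Among chaperone genes, 2 of 6 sums were higher, all 6 in 3'UTRs (beside 11.1% of all 3'UTR sums). Both encode lectin chaperones of the endoplasmic reticulum, and neither was called on tags in peaks (adjusted p = 0.326 for CANX and 0.123 for CALR). CANX had 417, 392, 34.2 and 105 CPM against 52.3, 78.7, 8.28 and 12.4 CPM (2.08, adjusted p = 0.00486; 0.0587 without G3BP 5). CALR had 56.4, 71.3, 76.9 and 44.8 CPM against 10.6 CPM in NES 4 and no tag in NES 1 to 3 (2.36, adjusted p = 0.00336; 0.05 without NES 3). The list medians were 0.61 and 0.48. Of 6 sums of the oxidative and integrated stress response, 2 were higher, beside 6.51% of all sums: PPP1R15B, a subunit of the phosphatase that acts on eIF2α (1.91, adjusted p = 0.0253), and the introns of ATF3, a stress-induced transcription factor (1.66, adjusted p = 0.038). ATF3 introns had 78.9, 0, 214 and 269 CPM against 0, 39.4, 12.4 and 33.6 CPM, so they overlapped in JL0388, where the difference was 0.37. Neither was called on tags in peaks (adjusted p = 0.351 for PPP1R15B and 0.549 for ATF3), and each call held in 2 of the 8 fits that left out a library, with a highest adjusted p of 0.134 and 0.312. TXNRD1, thioredoxin reductase, had 1.58 (adjusted p = 0.0542). The list medians were 1.09 and 0.58.

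The list of AU-rich and known HuR target mRNAs gave no call among 14 sums, beside 6.51% of all sums called higher, with medians of 0.66 and 0.10. CTNNB1, the beta-catenin gene and one of the best covered, had 755, 392, 384 and 672 CPM against 392, 289, 120 and 65.5 CPM (1.52, adjusted p = 0.0985). CCND1, the cyclin D gene, had 271, 249, 0 and 29.9 CPM against 235, 39.4, 20.7 and 1.77 CPM (0.67, adjusted p = 0.474). Of 24 sums of HNRNP and SRSF splicing factors, 2 were higher, beside 6.51% of all sums and 11.1% of 3'UTR sums, with medians of 0.73 and 0.19. Neither was called on tags in peaks (adjusted p = 0.248 for HNRNPH1 and 0.287 for HNRNPU). HNRNPH1 had 338, 392, 581 and 792 CPM against 209, 78.7, 37.3 and 117 CPM (2.26, adjusted p = 0.00425; 0.0991 without NES 2). HNRNPU, which also organises chromatin, had 744, 570, 196 and 164 CPM against 183, 197, 20.7 and 19.5 CPM (2.14, adjusted p = 0.00501). HNRNPL had 1.26 (adjusted p = 0.131).

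The lists of translation factors and ribosomal proteins, which do not hold GSPT1 or PABPC1, gave no call. On library totals 6.51% of all sums were higher and 0.264% lower, so a lack of calls does not set lists this short apart. None of 10 sums of translation factors passed, with medians of 0.79 and 0.14, and EIF5A and EIF2S3 had 1.42 and 0.83 (adjusted p = 0.104 and 0.362). None of 7 sums of cytosolic ribosomal protein genes passed either, with medians of -0.83 and -1.40. Among the best covered of these, RPS12 and RPL7A (-1.04 and -0.45) are snoRNA peaks within those host genes and not the mRNAs. In the list of nuclear retained RNAs and snoRNA hosts, 2 of 11 sums were lower on both scales, GAS5 and SNHG1, beside 0.264% of all sums on library totals and 0.484% on tags in peaks, and medians were -0.12 and -0.73. MALAT1, a nuclear speckle RNA, had 316, 285, 769 and 284 CPM against 627, 341, 45.6 and 136 CPM. It was lower in JL0388 (-0.60) and higher in JL1024 (2.48), for 0.88 over both (adjusted p = 0.376). NEAT1, the scaffold of paraspeckles, had 8.54 to 35.6 CPM against 131, 78.7, 6.21 and 7.08 CPM (-0.56, adjusted p = 0.583).

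The remaining lists stand beside the same 6.51% and 11.1% on library totals. Cytoskeleton and junction genes had 17 tested sums, of which ACTN4, ACTR2 and EZR were higher, as was PKP2, which was tested through its G3BP tags alone and supports nothing. The list had medians of 0.99 and 0.49. ACTB, the beta-actin gene, had 609, 641, 376 and 896 CPM against 654, 354, 170 and 197 CPM (0.99, adjusted p = 0.344), and -0.08 on tags in peaks. Endocytosis and traffic genes had 21 tested sums, of which EPS15 and RAB5A were higher. So were RAB7A introns, again tested through G3BP tags alone, in a call that held in 1 of the 4 fits without 1 library that could test it (adjusted p up to 0.207). The list had medians of 0.63 and 0.32. Cholesterol and lipid genes had 2 of 9 higher (SCD and HMGCS1) and medians of 0.97 and 0.63. Plasma protein genes of the hepatocyte had 1 of 10 higher, the 3'UTR of AFP, the fetal counterpart of albumin (1.86, adjusted p = 0.0343), with medians of 0.46 and 0.06. AFP had 124, 107, 34.2 and 0 CPM there against 0, 0, 2.07 and 12.4 CPM, its call held in 2 of the 8 fits without 1 library (adjusted p up to 0.181), and its coding sum differed by 0.91 (adjusted p = 0.308). On tags in peaks, where 0.22% of all sums were called higher, the calls in these 4 lists were EPS15, SCD and PKP2. Beside these stand the medians of all 3'UTR sums, 0.78 and 0.41.

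Calls outside 3'UTRs were few, and are named here after their values were seen. In 5'UTRs they were ARHGEF11 (2.33, adjusted p = 0.0047), C6orf62 (1.84, 0.0174), PABPC1 and EBP (1.59, 0.0461). When each of the 8 libraries was left out in turn, the ARHGEF11 call held in all 8 fits, that of C6orf62 in 3 (adjusted p up to 0.152), EBP in 2 and PABPC1 in 1 (up to 0.132 for both). The introns of RBM15, BLTP3B, MBNL1, RAB7A, SRPK2 and ATF3, the coding sequence of ATP13A3 and the non-coding RNA MIR924HG were the others besides HELLS. The call of BLTP3B held in 4 of the 8 fits without 1 library (adjusted p up to 0.107), SRPK2 in 2 of 8 (0.22), MIR924HG in 2 of 8 (0.192), ATP13A3 in 1 of 4 (0.157) and RAB7A in 1 of 4, 4 being the fits in which these sums still met the filter. RBM15 introns, in a gene for an RNA methylation factor, had 101, 143, 0 and 119 CPM against 26.1 CPM in NES 1 and no tag in NES 2 to 4 (2.17, adjusted p = 0.00721; 0.125 without NES 2). MBNL1 introns, in a splicing regulator gene, had 33.8, 71.3, 128 and 59.7 CPM against 0, 26.2, 6.21 and 12.4 CPM (1.88, adjusted p = 0.0201), a call held in 3 of those 8 fits (up to 0.142).

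Of single peaks of 20 bases, 1223 had tags in at least 4 libraries. Of these 33 were higher near G3BP1 (2.7%) and 1 was lower (0.0818%), by limma at an adjusted p below 0.05 on library totals, and 30 of the 33 (90.9%) lay in 3'UTRs, as did 58.7% of the tested peaks. The others lay in a 5'UTR, downstream of a gene and in an unannotated stretch. Limma called none on tags in peaks, with 204 below 0.05 unadjusted. The count of 33 was 0 without G3BP 4, 21 without NES 3, 75 without G3BP 6 and 83 without G3BP 7. The ADAR peak at chr1:154584670-154584690 (22 G3BP and 4 NES tags), the MARCKS peak at chr6:113861085-113861105 (25 and 9) and the CALR peak at chr19:12944111-12944131 (17 and 6) held the most tags of any peak in their sums.

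The 5'UTR peak was in C6orf62 (ENSG00000112308), and its sequence is printed because it lies across a RefSeq transcription start, where the reference tables hold the letters. It runs from 7 bases before the start to position 14 after it, at chr6:24719141-24719161 on the minus strand of GRCh38.p14. In it and the peaks below, runs of 3 or more T are in capitals, as HuR is known to favour such stretches, and 21 bases are shown because the table does not say whether starts count from 0 or 1.
C6orf62 5'UTR: TTTTTTggaaagcaaggatca
CLASP1 5'UTR: TTTTTTTaatccccgcaccaa
CREB5 intron: TTTTTTaTTTaaacaaacaat
C6orf62 5'UTR, neighbouring peak: caccaagtgtaatcaataaca
H2BC14 5'UTR: TTTccaccatgcctgaaccag
RPL17-C18orf32 5'UTR: ttggattaataatgaaaacaa
UBAP2 snoRNA: tctgagttgtatgtgtggaca

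The first C6orf62 peak had 6, 2, 6 and 10 tags in G3BP 4 to 7 and 1, 2, 0 and 0 in NES 1 to 4. All G3BP libraries had tags there and both NES libraries of JL1024 had none, and the log2 difference was 2.07 (SE 0.54, adjusted p = 0.0397). The neighbouring peak, at chr6:24719328-24719348, has no run of 3 T, and it had 3 tags in each line. The CLASP1 peak, in a gene for a microtubule plus-end protein, lies at chr2:121649450-121649470 on the minus strand and had 6 G3BP tags and no NES tag. The CREB5 peak, at chr7:28412326-28412346, had 7 tags, all of them from G3BP 6. The H2BC14 peak, at chr6:27815036-27815056 on the plus strand, had 4 G3BP tags and 1 NES tag. The peaks in RPL17-C18orf32 (chr18:49491680-49491700) and UBAP2 (chr9:33934319-33934339), both on the minus strand, had 22 and 5 tags, all from NES libraries. These are all 7 peaks with at least 5 tags that fell in promoter windows with a known sequence, and 3 of them held TTTTTT on the gene strand and 0 on the other strand. Over 35116 promoter windows, the 21 bases at the place of the first C6orf62 peak held TTTTTT in 0.72% on the gene strand and in 0.31% on the other. At the place of the CLASP1 peak the shares were 0.749% and 0.319%, and at that of the CREB5 peak 0.814% and 0.891%. At the places of the other 4 peaks the gene strand held it in 0.319% to 0.809%. These few peaks were matched by position alone, and the letters under the 3'UTR peaks were not analysed here.

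Sums higher near G3BP1 were compared with the same sums in libraries without capture or without arsenite. The 148 sums had a median G3BP minus NES log2 difference of 0.44 in the arsenite inputs, beside 0.27 for all 2275, and 112 of the 148 were above 0. In the mock-treated enriched libraries the medians were 0.32 and 0.12, and 105 were above 0. With all-sum medians above 0, most of the 2275 sums were above 0 too, so these counts alone do not set the 148 apart. By gene, EPS15 differed by 0.29 in inputs and 0.29 in mock libraries, PHACTR2 by 0.41 and 0.05, and HELLS by 0.86 and -0.60. SCD differed by 0.77 and 1.72, SPTBN1 by 0.87 and 1.77, and HNRNPH1 by 0.63 and 2.45. VCPIP1 differed by 2.30 in inputs and CALR by 2.78, close to or above their values in the enriched libraries. Depth differed widely, from 11110 to 170461 tags in peaks in the inputs and from 679 to 86419 in the mock libraries, and these values have no test of their own beyond the interactions above.

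Finally, the higher 3'UTR sums were set against fractionated arsenite cells, in which HuR tags were counted in nuclei and cytoplasm apart. The cytoplasmic over nuclear log2 ratio had a median of 0.51 in the 135 called sums, with 80.7% above 0. All 1213 tested 3'UTR sums had 0.43 and 76.6%, and the 210 with at least 20 tags that were not called had 0.59 and 82.9%. The called genes spanned a median of 45.9 kb, all tested 3'UTR genes 54.0 kb, and the uncalled ones with at least 20 tags 45.05 kb.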

How the data were processed

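HuR CLIP tags were measured in 58 libraries. The authors deposited a peak by library table of signal, in which, judged from the values, an entry is the tags in a peak over a library total: whole tags were recovered for 100% of values to within 0.01 tag. The submitters' processing notes name GRCh38.p14, Bowtie2, SAMtools, bedtools and HOMER without role or order. The peak caller and the treatment of duplicate reads are not given in the sources used here. Samples were grouped by their titles and the library set in their descriptions.

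Of 395471 lines, 8257 repeats were dropped, leaving 387214 peaks; 84358 carry no gene name and entered class shares only. Tags were summed per gene name and annotation class. Sums with tags in at least 4 of the 8 libraries were tested with limma 3.58.1 in R 4.3.3 (lmFit, trended eBayes), applied to log2(CPM + 12.2), or log2 of tags per 1000000 tags in peaks + 112, 12.2 and 112 being the median value of 1 tag, with library set as a covariate, two-sided, Benjamini-Hochberg at 0.05. Differences are on that scale and understate changes of low sums. Class shares used exact permutation tests within sets. edgeR 4.0.16 (quasi-likelihood) and limma-voom on recovered tags, other filters and pseudocounts, and leaving out each library were alternatives. The fitting functions were also run on simulated tags, whose outcome is not given here and lends no support to the calls. Intervals (Wilson or exact, 95%) and the floor of 3 tags cover counting error only; 1 tag was worth 1.77 to 35.6 CPM.

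Named sums were the 18 highest and 8 lowest log2 differences among called sums with at least 20 tags, filled where fewer were called by the smallest p; the 5 smallest p in each direction on tags in peaks; for each of 13 gene lists the 3 sums with the most tags; and ELAVL1, G3BP1, MALAT1, NEAT1, ACTB and NORAD. The comparison, members and lists were chosen with earlier results of these data known. Libraries of the 2 lines with the same number within a library set, such as G3BP 4 and NES 1, were checked for pairing. Their deviations from group means correlated at 0.190, 0.0931, 0.213 and 0.183, so they were not treated as pairs. Some items that this rule or the text would name are not reported here. Promoter sequences are RefSeq's (GRCh38.p14). Python 3.11.15 was used with matplotlib 3.10.9, scipy 1.17.1, pandas 2.3.3 and numpy 2.4.6.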

Additional observations from a re-analysis of the deposited data

Results flagged for a closer look

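In 76 groups of 4 libraries, the gap between the most extreme library and its nearest neighbour was compared with Dixon's critical value. For measured values chance exceeds it in about 1 of 20 groups. That rate does not apply to the 6 of 10 cases below in which 3 libraries had no tag, where any tag in the fourth passes. In the G3BP group, SPTBN1 was low in G3BP 6 (222 CPM), SNTB1 was high in G3BP 7 (194 CPM) and GAS5 was high in G3BP 7 (329 CPM). RNA5S16 and 5_8S_rRNA had tags in G3BP 6 (34.2 and 59.8 CPM) and none in the other 3 G3BP libraries. In the NES group, NES 2 was high for HELLS (65.6 CPM) and for TACC1 (13.1 CPM, 1 tag, the only one of the group). NES 3 had the only EPS15 tags of the group (6.21 CPM), and NES 4 the only SNTB1 (3.54 CPM) and CALR tags (10.6 CPM).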

How the results depend on the processing

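Over both scales, none of the 57 called values of named sums changed sign under an alternative run for it, and 33 of the 85 that were not called did. Among named sums, alternatives ended a call in 519 cases on library totals and 123 on tags in peaks, made one in 24 and 63, and left the call as it was in 1137 and 1352. Counts moved far more. On library totals the 148 higher and 6 lower sums became 88 and 2 with a pseudocount 4 times smaller, 92 and 2 with one 4 times larger, and 37 and 0 without the filter. They became 98 and 0 by edgeR, 366 and 0 by limma-voom, 9 and 14 centred on the median difference, 1 and 42 by edgeR with TMM factors, and 1 and 30 scaled to tags in mRNA classes. With NES 1 and 2 counted once, 3 lower sums were called. Without the set as covariate, or within JL0388 or JL1024 alone, they were 0 and 0. Leaving out 1 library gave 43 to 183 higher and 0 to 8 lower. On tags in peaks, the 5 higher and 11 lower became 0 and 0 with the smaller pseudocount, 2 and 2 without the filter, 8 and 17 with at least 20 tags, 2 and 18 by edgeR, 20 and 27 by limma-voom, and 1 and 30 on mRNA classes. They were 0 and 0 without the set, within either set, and with NES 1 and 2 counted once, and leaving out 1 library gave 0 to 14 and 0 to 19. Single peaks went from 33 and 1 to 7 and 0 with the smaller pseudocount, to 0 lower with the larger, to 0 and 0 on tags in peaks and to 134 higher by edgeR, with 0 to 83 and 0 to 7 when 1 library was left out.

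With the number within the library set as a block, 87 sums were higher and 0 lower on library totals, and 4 and 11 on tags in peaks. These numbers of the 2 lines only share a name as far as the labels say. Libraries with the same number within a set correlated at 0.0931 to 0.213 about the group means and at -0.0346 to 0.0021 about the means of group and set.

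Signs changed for the class share CDS, coding sequence (-0.0469 to 0.308 points when 1 library was left out), and for the class share downstream 10K (-0.0221 to 0.208, and -0.0809 over peaks with a gene name only). The class share intron differed by -11.2 within JL0388, 9.70 within JL1024, 0.959 with NES 1 and 2 counted once, and -4.84 to 1.27 when 1 library was left out. As percent of the library total, intron was 1.02, Other 0.142, transposable elements 0.0523, ncRNA 0.0674 and unannotated 0.692. The cause of these shifts was not tested. Depth limits low sums most: 1 tag in G3BP 5 was worth 35.6 CPM and 1 tag in NES 4 only 1.77 CPM.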
